A study of Homo sapiens with 4 samples.

Results

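The measurements described are those of LNCaP cells exposed to atorvastatin (ATO), set against LNCaP cells that received no treatment. LNCaP is an established human prostate cancer line that responds to androgen and expresses prostate-specific antigen. The arrays were taken by their labels, and they are 2 of the 4 gene expression arrays of the series; the other 2 are of PC3, an androgen-independent prostate cancer line, with and without ATO. The treated LNCaP cells were given ATO at 10 µM for 24 h after a change of medium, and the control cells are labelled as untreated, with no vehicle named. Both were grown in RPMI medium with fetal bovine serum. Each condition was 1 array of total RNA from 1 culture, so no comparison has a replicate and no p-value can be given. A gene is said to have risen or fallen only where the log2 ratio of ATO over control passed 1.5-fold (0.58 on the log2 scale), and other ratios are given as values.

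ATO is a statin, a drug that blocks the synthesis of mevalonate. Mevalonate is the precursor of cholesterol, of the farnesyl and geranylgeranyl groups attached to small GTPases, and of dolichol and coenzyme Q. When sterols fall in the endoplasmic reticulum, the transcription factor SREBP-2 is escorted by SCAP to the Golgi, cleaved there by 2 proteases, and then switches on the genes of the mevalonate pathway and of lipoprotein uptake, while INSIG proteins hold the complex back when sterols are plentiful. Prostate cancer cells make much of their own lipid, and androgens feed into the same lipogenic programme.

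The label LNCaP was checked against its markers, and 11 of 11 luminal prostate markers were well above background on both arrays. KLK3, the gene of prostate-specific antigen, read 65987 intensity units in control cells and 65646 units in ATO cells (log2 ratio -0.10). The 11 log2 ratios lay between -0.19 and 0.11. CAV1 and CD44, which mark PC3 cells, were not well above background on either array, nor were the basal keratins KRT5 and KRT14. Of the 7 PC3 and mesenchymal markers 1 was on both arrays, VIM, at 65.3 and 138 units. Of the 5 basal markers 1 was also, ITGA6, at 466 and 444 units (-0.17).

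Signal was well above background at 52.9% of the 43118 gene spots of the control array and 48.5% of those of the ATO array, and 12270 genes were measured on both. Log2 ratios were taken after each array was scaled to its 75th percentile, 653.7 units in control and 699.2 in ATO. The median over all genes was 0.02, with 6619 genes above 0 and 5651 below. Of all measured genes 210 rose (1.71%) and 128 fell (1.04%).

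Local background on the ATO array rose toward its lower rows, and groups of stray spots lay there as well. Both bear on every count. Local background more than 32 units above the array's median lay around 17.7% of its gene spots and around 0.872% of those of the control array, starting at row 311 of 532. Single spots passed 1.5-fold at 1.09% in rows 1 to 180, 1.51% in rows 181 to 360, 4.37% in rows 361 to 440, 4.41% from there to row 500 and 16.2% in the last rows. Spots at least 8-fold apart numbered 248, with 113 higher and 135 lower on the ATO array. Of the 248, 207 lay in rows 361 on, and 190 of those 207 had another such spot within 3 positions. Rows 1 to 360 held 41, of which 25 had such a neighbour. In rows 361 to 420, 94 spots were lower, 89 of them with a neighbour. A TFRC spot there read 5960 and 11.5 units. The bright background limit of 132.5 units did not mark it, since its local background was 115 units. Outside bright background 104 of 10090 genes rose (1.03%) and 76 fell (0.753%). Among genes whose spots all lay in rows 1 to 360, 75 of 8076 rose (0.929%) and 32 fell (0.396%). With at least 200 units on both arrays as well, 38 of 6413 genes rose (0.593%) and 7 fell (0.109%). The row limit and the limit of 200 units were set after the data were seen.

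**Figure D1:**
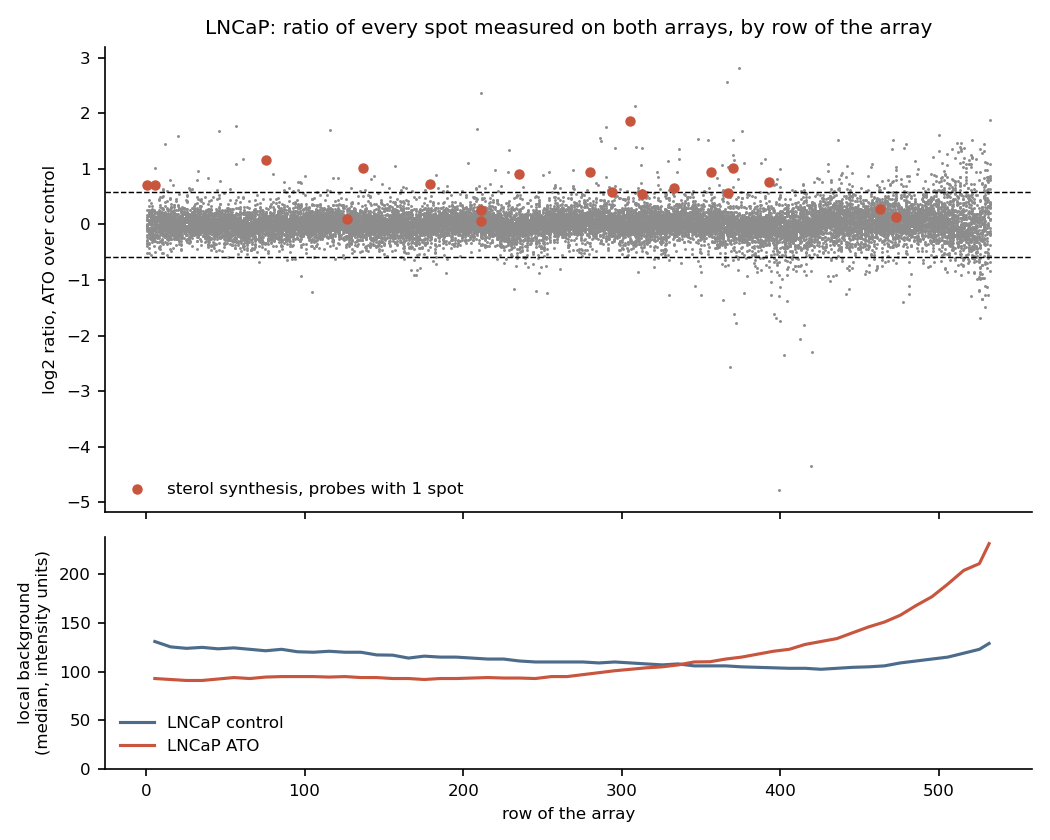
Log2 ratio of ATO over control for single gene spots by array row (upper panel, sterol genes with a single spot in red) and median local background in units per 10 rows for each array (lower panel). Spots past 1.5-fold reached 16.2% in the last rows, where the background of the ATO array also rose, while most sterol genes lay in rows 1 to 360.

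The 2 sterol synthesis lists had the highest medians of the 27 lists with at least 5 measured genes. All 22 measured genes of the pathway from acetoacetyl-CoA to cholesterol were higher in ATO cells, 14 of them rose and none fell, with a median log2 ratio of 0.72 (1.64-fold). The same 1.5-fold limit was passed upward by 1.71% of all genes. In rows 1 to 360 the pathway had 15 measured genes, all higher and 11 risen. With the SREBP and LDL uptake genes included, the sterol lists held 18 of the 210 genes that rose on the whole array, 15 of the 75 in rows 1 to 360, and 14 of the 38 that also read at least 200 units. They held none of the genes that fell. The earlier results of these data were known when the lists were written, so these counts are a description.

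Along the mevalonate arm 9 of 10 genes were measured and 6 rose. HMGCS1, the cytosolic HMG-CoA synthase, read 2485 units in control and 9689.9 units in ATO cells, a log2 ratio of 1.87 or 3.64-fold, from a probe at chr5:43325874-43325933 (hg18, the build of the array design). It was the gene with the highest ratio of the 3 sterol lists. ACAT2, which condenses acetyl-CoA to acetoacetyl-CoA, went from 2236 to 3928 units (0.72).

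The later steps of the arm moved unequally. MVK, mevalonate kinase, rose from 1855 to 3112 units (0.65). MVD, mevalonate diphosphate decarboxylase, passed 1.5-fold with 215 and 464 units (1.01), but its only spot, in row 370, had 11 spots within 3 positions that were at least 8-fold higher on the ATO array, at 111 to 1077 units. Their part in its ratio was not tested, and the counts for rows 1 to 360 leave it out. PMVK, the second kinase of the arm, read 5199.5 and 5959.9 units, a log2 ratio of 0.10. IDI1, the isopentenyl diphosphate isomerase, rose from 2310.0 to 4752 units (0.94). FDPS, which makes farnesyl diphosphate, read 10741 and 16722 units (0.54), just inside the 1.5-fold limit. GGPS1, which makes the geranylgeranyl diphosphate used for protein prenylation, read 409 and 479.9 units (0.13) in bright background. MMAB, a cobalamin enzyme whose gene shares a promoter region with MVK and which was named after its values were seen, rose from 601 to 1049 units (0.71).

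From squalene to cholesterol 13 of 14 genes were measured, all were higher, and 8 rose. FDFT1, squalene synthase, went from 11485 to 23554 units (0.94, 1.92-fold). SQLE, squalene monooxygenase and a rate-limiting step, went from 835 to 2007 units (1.17, 2.25-fold), and LSS, lanosterol synthase, from 1248 to 2691 units (1.01, 2.02-fold). The second LSS probe, a single dim spot in row 390, read 37.2 and 90.3 units (1.18). The 3 genes that carry farnesyl diphosphate to lanosterol therefore all passed 1.5-fold.

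The demethylation of lanosterol followed. CYP51A1, the lanosterol 14-demethylase, went from 2770 to 4893 units (0.72). MSMO1, the C4-methylsterol oxidase (SC4MOL on the array), was spotted 10 times per array. Its control spots ran from 299 to 419 units with a median of 341, and its ATO spots from 730.4 to 1465 with a median of 1089.5, so that no ATO spot was as low as any control spot. The log2 ratio was 1.499 with a technical standard error of 0.10 over 10 spots per array (2.83-fold). NSDHL, the next enzyme, rose from 2014 to 3247 units (0.59), but by 0.53 with normexp, another background correction.

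HSD17B7, the 3-keto reductase of the same complex, had 3 probes with log2 ratios between 0.87 and 1.02. Its probe spotted 10 times read 237 to 331 units in control and 608 to 676 in ATO cells over 9 unflagged spots, with no overlap and a technical standard error of 0.05. A near-identical pseudogene copy could share signal with it. ERG28, the scaffold of the C4 demethylation complex (C14orf1 on the array), read 6405.5 and 10122.7 units (0.56).

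The end of the pathway moved less, DHCR7 apart. DHCR7, which makes cholesterol from 7-dehydrocholesterol, rose from 4417 to 7763 units (0.72). EBP, the sterol isomerase, read 0.27 in bright background. Of the 2 genes for the C14 reductase step, TM7SF2 read 3088 and 4247 units (0.36, technical standard error 0.02) and LBR, which is also a nuclear envelope protein, 3985 and 4458 units (0.06). SC5D, the sterol desaturase, was not well above background on either array.

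Among the genes that sense and take up sterol, 16 of 17 were measured, 4 rose and none fell, and the list median was 0.06. Over all genes 1.71% rose and 1.04% fell. INSIG1, the sterol-regulated brake on SREBP and itself a target, rose from 2317 to 6460.4 units (1.38, 2.61-fold). STARD4, which carries cholesterol between membranes, rose from 115 to 236 units (0.94), and SREBF2, which encodes SREBP-2, from 1695 to 2842 units (0.65). The genes that rose thus included a carrier, the feedback brake and the SREBP-2 gene. NPC1, which exports cholesterol from lysosomes, had a log2 ratio of 0.56 with a technical standard error of 0.05. Its 10 control spots lay between 238 and 325 units and its 9 unflagged ATO spots between 413 and 505. The NPC1 probe counted as in bright background, with spots in rows 316 to 505, and 1 flagged ATO spot of 219 units was left out. The other components of the sensing machinery lay near 0, with SCAP at -0.01, INSIG2 at -0.02 and the protease genes MBTPS1 (1164 and 1244 units) and MBTPS2 at most 0.19 from it. SREBF1, the gene of SREBP-1, read 6086 and 6508 units. SCARB1, an HDL receptor, read 0.26, LIPA, the lysosomal lipase, 0.12, NPC2, a lysosomal cholesterol carrier, 0.10 and TMEM97 0.02. MYLIP, a ubiquitin ligase and a target of the sterol-activated receptor LXR, read 869 and 699 units (-0.41).

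**Figure D2:**
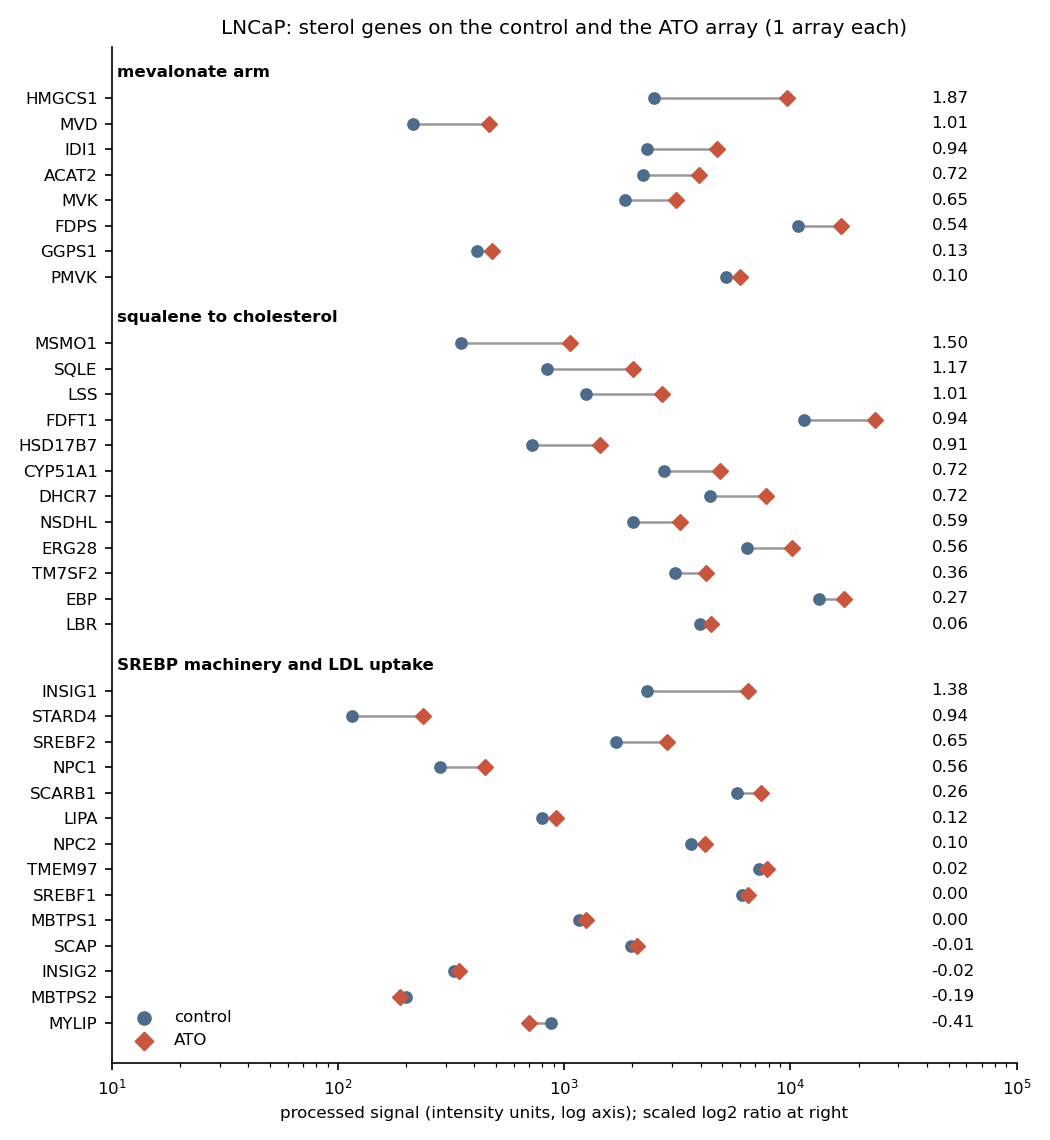
Intensity in control (dot) and ATO (diamond) LNCaP cells on a log axis for 34 measured genes of the mevalonate, squalene and SREBP lists, with the log2 ratio at the right; each point is 1 array. All 20 synthesis genes plotted read higher in ATO cells, and INSIG1, STARD4 and SREBF2 passed 1.5-fold among the regulators.

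Promoters are shown for 4 of these genes because SREBP acts at a sterol element next to a CCAAT box, the site of the factor NF-Y with which it works. Each run is the 250 bases before the RefSeq start of the gene (GRCh38.p14), in the gene's own orientation, with CCAAT on either strand in capitals and, in SREBF2, the sterol element TCACNCCAC also in capitals. HMGCS1 is at chr5:43313413-43313662 on the minus strand, MSMO1 at chr4:165327419-165327668, INSIG1 at chr7:155297628-155297877 and SREBF2 at chr22:41832855-41833104, all on the plus strand.
HMGCS1: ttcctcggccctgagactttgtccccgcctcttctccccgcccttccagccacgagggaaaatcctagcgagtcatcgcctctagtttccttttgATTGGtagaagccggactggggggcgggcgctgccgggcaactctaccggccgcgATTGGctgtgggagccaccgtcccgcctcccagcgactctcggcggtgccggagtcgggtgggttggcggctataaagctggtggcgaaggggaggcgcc
MSMO1: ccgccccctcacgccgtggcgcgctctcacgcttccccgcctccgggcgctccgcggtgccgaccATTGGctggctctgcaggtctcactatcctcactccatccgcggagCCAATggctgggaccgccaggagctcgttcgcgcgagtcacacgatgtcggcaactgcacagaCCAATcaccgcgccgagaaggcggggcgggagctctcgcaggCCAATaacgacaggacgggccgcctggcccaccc
INSIG1: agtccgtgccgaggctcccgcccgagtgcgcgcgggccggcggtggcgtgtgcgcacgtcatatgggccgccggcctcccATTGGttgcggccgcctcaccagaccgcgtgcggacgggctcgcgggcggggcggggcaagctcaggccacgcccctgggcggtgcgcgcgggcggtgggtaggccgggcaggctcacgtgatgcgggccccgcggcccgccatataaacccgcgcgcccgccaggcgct
SREBF2: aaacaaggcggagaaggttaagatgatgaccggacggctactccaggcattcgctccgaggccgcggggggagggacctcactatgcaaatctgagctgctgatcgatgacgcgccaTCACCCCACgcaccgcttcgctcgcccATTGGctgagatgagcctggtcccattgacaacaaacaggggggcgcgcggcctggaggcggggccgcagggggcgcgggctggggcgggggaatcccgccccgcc

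MSMO1 held 4 CCAAT matches in this window, HMGCS1 2, and INSIG1 and SREBF2 1 each, and the sterol element of SREBF2 began 133 bases before the start, with its CCAAT at 106. Of the 38 measured sterol genes 30 had a promoter in the RefSeq table, and CCAAT was in 18 of the 30 (60.0%), against 32.0% of all 35116 promoter windows of this length. Among the 13 that rose it was in 11 (84.6%), and among the other 17 in 7 (41.2%). TCACNCCAC was in 0.883% of all windows and in 1 of the 30. A match says only that these letters stand in the window.

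Fatty acid genes, which SREBP-1 drives, were higher in 16 of 17 measured cases, but only 2 rose, and the median was 0.30. Of all 12270 genes 6619 were above 0 and 1.71% rose. ACSS2, which makes acetyl-CoA from acetate, rose from 1185 to 1959.6 units (0.63). ACSL1, a long-chain acyl-CoA synthetase, rose from 1353 to 2200.4 units (0.60, technical standard error 0.04), its 10 control spots between 1257 and 1494 units and its 10 ATO spots between 1949 and 2421. Next came ELOVL6, a fatty acid elongase, at 0.53, the desaturase genes SCD at 0.50 and FADS2 at 0.42, and FASN, fatty acid synthase, at 0.29. LPIN1, a phosphatidate phosphatase and transcriptional coregulator, rose on both of its probes, from 1214 to 2793 units (1.10, 2.15-fold) and, in bright background in row 479, from 88.2 to 258 units (1.45) at the second. Lipid synthesis genes thus read higher across the list by smaller amounts than sterol synthesis genes.

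Of the LXR and cholesterol efflux genes 6 of 11 were measured and the list median was 0.00, with 3 genes higher and 3 lower. ABCG1, a cholesterol exporter and LXR target, fell from 170.0 to 81.7 units (-1.15, 2.23-fold lower), from a single spot in row 232. ABCA1, the other main exporter, was not well above background on either array, and APOE, a lipoprotein component, was so in control cells only (47.8 and 52.3 units). SMPDL3A, another LXR target, read 0.12, and the LXR genes NR1H2 and NR1H3 0.03 and -0.02.

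Genes that use the isoprenoid products of mevalonate followed. Of 9 measured prenylation genes none passed 1.5-fold and the median was -0.03. CHM was farthest from 0, at 311 and 495 units (0.57) in bright background. With spike-in scaling, or the 75th percentile of measured probes, 1 of the 9 passed. FNTA, the subunit shared by farnesyl and geranylgeranyl transferases, read 0.17, RCE1, the CAAX protease, -0.14, and RABGGTA -0.06. Of 18 coenzyme Q and dolichol genes none passed either (median -0.02), with COQ10B, a coenzyme Q carrier, at 0.38 and PDSS1, which makes its side chain, at -0.27. With scaling to the spike-in probes, which raised the all-gene median by 0.19, the prenylation and coenzyme Q medians turned to 0.17 and 0.18.

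The cell cycle genes read lower, by little. Of 117 measured genes in the 4 cell cycle lists, 109 (93.2%) had a log2 ratio under 0, against 5651 of all 12270 genes (46.1%), and 2 fell past 1.5-fold. Their median was -0.24, or 1.18-fold lower. In rows 1 to 360, 63 of 66 were under 0 (95.5%), the median was -0.22 and none passed 1.5-fold. RNA from the whole culture was measured, so fewer cycling cells and less mRNA per cell cannot be told apart. Under spike-in scaling 30 of 38 replication, 9 of 16 nucleotide and 24 of 41 mitosis genes were still under 0 but only 7 of 22 G1 and S phase genes, whose median turned to 0.08. Relative to the all-gene median, the medians were -0.32 for replication, -0.22 for nucleotide supply, -0.27 for mitosis and -0.13 for G1 and S phase. Spike-in scaling shifts every ratio by the same amount, so these distances are the same under either scaling by construction.

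Replication fork genes were lower in 37 of 38 cases, with a median of -0.31. PCNA, the sliding clamp of DNA polymerase, read 8514 and 7371 units (-0.31, technical standard error 0.04 over 10 spots). Subunits of the MCM helicase ranged from MCM2 at -0.43 to MCM6, which at 5633 and 6041 units was the list's only member above 0. FEN1, the flap nuclease, read 3394 and 2695 units (-0.43), and GINS3, of the helicase's GINS complex, 1338 and 1028 units (-0.48). MCM10, a replication initiation factor, fell from 241 to 166 units (-0.64), in row 365, and did not pass 1.5-fold with spike-in scaling (-0.44) or with normexp (-0.48). CDC6, the licensing factor, was well above background in control cells only and was at least 1.41-fold lower in ATO cells.

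The other cell cycle lists had smaller medians. Genes that supply nucleotides were lower in 15 of 16 cases, with a median of -0.21, and RRM2, the regulated subunit of ribonucleotide reductase, read 1739 and 1365 units (-0.45). Genes that control entry into S phase were lower in 17 of 22 cases, with a median of -0.12. E2F1, which drives S phase genes, read 1381 and 1136 units (-0.38, technical standard error 0.04), and CDK2 2066 and 1786 units (-0.31). CDKN1A, which encodes the CDK inhibitor p21, read 1019 and 1117 units (0.03). Mitosis genes were lower in 40 of 41 cases, with a median of -0.25. CENPA, the centromeric histone, read -0.45, AURKB, a kinase of chromosome segregation, -0.45, and KIF2C, a microtubule depolymerase, -0.44. KIFC1, a spindle motor, fell from 981 to 582 units (-0.85), in bright background in row 522. ANLN, needed for cytokinesis, was the mitosis gene above 0 (0.55), also in bright background.

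The probes spotted 10 times gave the ratio of the same genes with its technical error. All 18 cell cycle probes among them were under 0, from -0.43 to -0.05 with a median of -0.30, and 15 were more than 2 technical standard errors from 0. Among all 611 genes with such probes 318 (52.0%) were under 0. CDK1, the mitotic kinase (CDC2 on the array), read -0.37 with a standard error of 0.04, and CCNA2, cyclin A2, -0.30 with 0.02. These errors cover spots of 1 labelled RNA sample and not the spread between cultures.

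**Figure D3:**
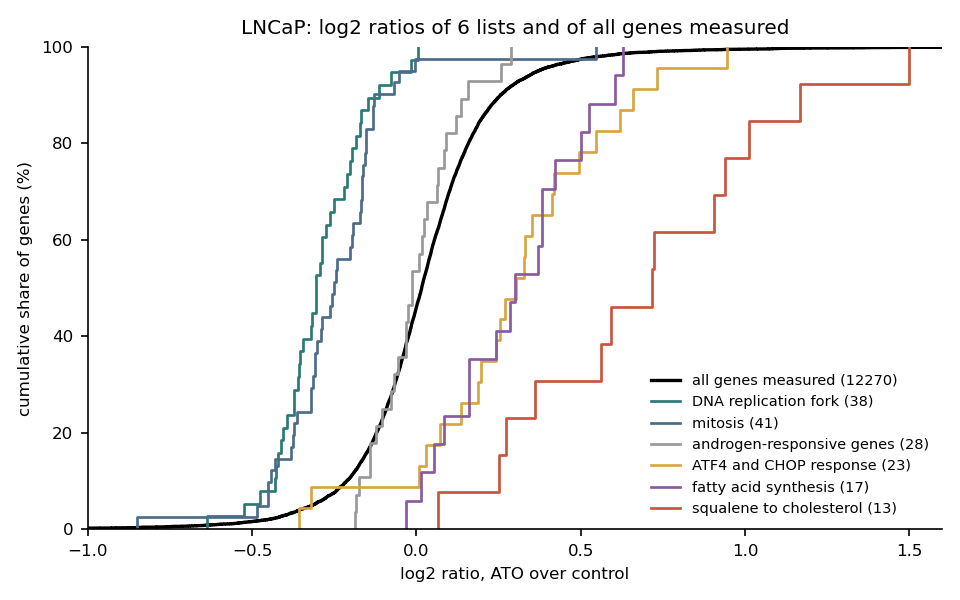
Cumulative share of genes (vertical axis) by log2 ratio of ATO over control (horizontal axis) for 6 gene lists and all 12270 measured genes, 1 array per condition. The squalene to cholesterol curve lies to the right of all genes (median 0.72), and replication (median -0.31) and mitosis (-0.25) to the left by less than 1.5-fold.

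Genes of the integrated stress response, driven by ATF4 and CHOP, were higher in 21 of 23 measured cases, and 4 rose (median 0.30). Of all 12270 genes 6619 were above 0 and 1.71% rose. GDF15, a secreted stress cytokine, rose from 8812 to 18145 units (0.94, 1.92-fold). DDIT4, which inhibits mTORC1, rose from 2483 to 4192 units (0.66, technical standard error 0.03), with its control spots between 2403 and 2583 units and its ATO spots between 3599 and 4367. CHAC1, which degrades glutathione, rose from 2996 to 4921 units (0.62) on its brightest probe, but only by 0.55 with normexp and by 0.53 as the median of its probes. SLC7A5, an amino acid transporter, went from 52 to 92 units (0.73) in bright background, and by 0.22 with normexp. ATF4 itself read 19616 and 27902 units (0.41) and DDIT3, the gene of CHOP, 775 and 1210.4 units (0.55) in bright background, while SLC7A11, the cystine transporter, read -0.36. With normexp 2 of the list passed 1.5-fold, GDF15 and DDIT4.

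The other stress lists held no gene that rose or fell. The 19 ER chaperone genes had a median of 0.05, with DNAJB9 at 0.34, HSPA5, the chaperone BiP, at 279 and 331 units (0.15), and CANX, calnexin, at -0.37. The 12 heat shock genes were all under 0, against 5651 of all 12270 genes. Their median was -0.13, and BAG3, a co-chaperone, was lowest at -0.31. With spike-in scaling 10 of the 12 were above 0. Relative to the all-gene median, the list median was -0.15, a distance that spike-in scaling cannot change because it shifts every ratio equally. Targets of the oxidative stress factor NRF2 were higher in 12 of 13 cases with a median of 0.06. Over all genes 6619 of 12270 were above 0, with a median of 0.02. HMOX1, heme oxygenase, read 559.5 and 858 units (0.52, technical standard error 0.03) and NQO1, a quinone reductase, 274 and 412 units (0.49).

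Among KLF transcription factors, a family with statin-responsive members in endothelium, 2 of 11 rose (median 0.19), against 1.71% of all genes. KLF6 went from 421 to 676 units (0.59), at the limit, and did not pass it with quantile scaling (0.58), the deposited table (0.58) or normexp (0.52). KLF3 went from 389 to 633 units (0.61) in bright background. KLF10 read 0.38 and KLF2 151 and 189 units (0.22). Among 9 measured immediate early and MAPK feedback genes none passed 1.5-fold, with JUN at 120 and 173 units (0.43), DUSP1, a MAPK phosphatase, at 692 and 987 units (0.41), and MYC at 0.03. FOS and EGR1 were not well above background on either array.

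**Figure D4:**
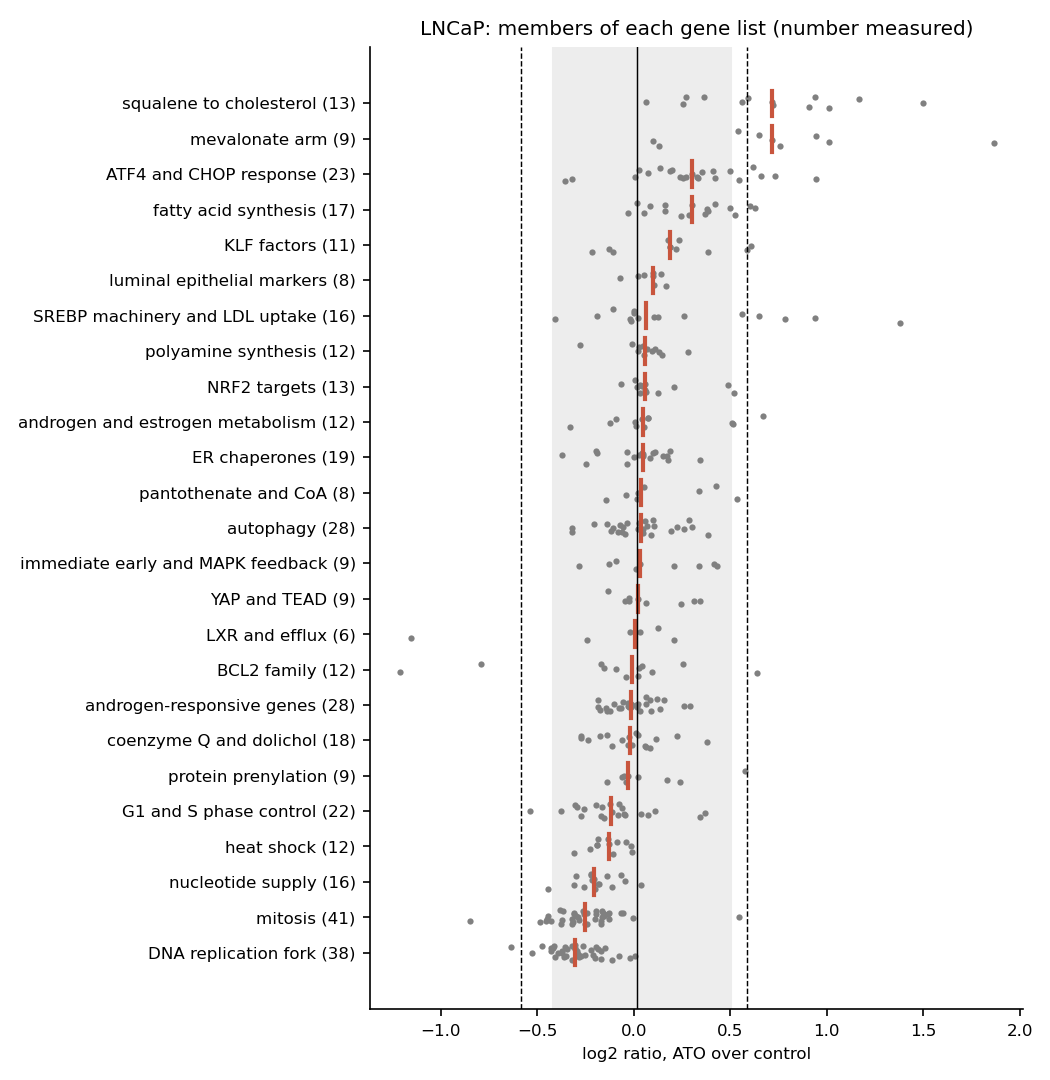
Log2 ratio of ATO over control for each measured gene (dots) of 25 lists, with the list median as a red bar, a grey band holding the central 95% of all genes and dashed lines at 1.5-fold. The sterol synthesis lists lie to the right of the grey band's centre with medians of 0.72, fatty acid and ATF4 lists at 0.30, and the cell cycle lists to its left.

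Few genes of the androgen axis passed 1.5-fold. Of 28 measured androgen-responsive genes none passed 1.5-fold, 13 were higher and 15 lower, and the median was -0.01. TSC22D3, a target shared with glucocorticoids, read 748 and 978 units (0.29), STEAP2, a metalloreductase, 0.26, and HOXB13, a prostate lineage factor, -0.18. Steroid metabolism was represented by 12 measured genes of 29, of which 1 rose, against 1.71% of all genes. UGT2B15, which glucuronidates androgens, went from 1963 to 3339 units (0.67), but by 0.53 with normexp. Its relatives UGT2B10 and UGT2B11 read 0.52 and 0.51, and cross-hybridisation within the family was not tested. CYP17A1 and HSD3B2, steps of androgen synthesis from cholesterol, were not well above background on either array.

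Genes of cell death and autophagy were mostly near 0. Of 12 measured BCL2 family genes 6 were higher and 6 lower. BMF, a pro-apoptotic BH3-only protein, fell from 387 to 179 units (-1.21, 2.32-fold lower; row 105), while PMAIP1, the BH3-only protein NOXA, rose from 186 to 309.8 units (0.64, 1.56-fold; row 11), but by 0.56 with normexp. BCL2L11, the BH3-only protein BIM, fell by 0.79 in bright background in row 526, and MCL1, an anti-apoptotic member, read 0.26. BCL2 was not well above background on either array. Of 28 measured autophagy genes none passed 1.5-fold (median 0.04). MAP1LC3B, which encodes LC3B, read 1267 and 1320.1 units (-0.04), GABARAPL1, of the same protein family, 0.39, SQSTM1, the receptor p62, 0.28, and ATG12 -0.32.

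The remaining lists held no gene measured on both arrays that passed 1.5-fold. YAP and TEAD genes had 9 of 18 members measured, a median of 0.02 and none past 1.5-fold, with AJUBA at 0.34 and CCN1, the matricellular target CYR61, at 637 and 692 units (0.02). Genes of pantothenate and CoA synthesis had 8 of 17 measured with a median of 0.04, with PANK3, a pantothenate kinase, at 0.53. PPCDC, of the same pathway, was well above background in control cells only and was at least 2.09-fold lower in ATO cells. Polyamine genes had 12 measured, a median of 0.06 and SAT1, a polyamine acetyltransferase, at 0.28. The 8 luminal epithelial genes had a median of 0.10, with CLDN4 at 0.17 and CDH1, E-cadherin, at 0.14.

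Markers of other cell types were sparse. Of 7 PC3 and mesenchymal markers VIM alone was measured, from 65.3 to 138 units (0.99), or 0.53 with normexp, and the 7 summed to 115 units in control and 219.9 in ATO cells. Of 10 neuroendocrine markers 2 were measured, and the 10 summed to 1523 and 1979 units. ENO2, the brightest, read 1130 and 1328 units (0.14) in bright background. TUBB3, a neuronal tubulin, rose from 339 to 548 units (0.60), but by 0.58 with quantile scaling, under the limit, and by 0.50 with normexp, while CHGA and SYP were not well above background. Basal markers summed to 511 and 497 units, of which ITGA6, the only one measured, read 466 and 444. Fibroblast and leukocyte markers summed to 505 and 366 units, including PTPRC, a leukocyte marker, at 215 and 20.4 units. Of the latter 9 markers 2 were measured, COL1A1 at 76.1 and 85.5 units (0.07) and CD68 at 168 and 182 units (0.02). PTPRC was well above background in control cells only, at a spot in bright background. That spot was at least 8-fold lower on the ATO array, with 1 other such spot within 3 positions. COL1A2 and CD3E were well above background on neither array.

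Outside the lists, the genes farthest from 0 were mostly in the rows with stray spots. Away from bright background, the 8 lowest ratios lay between -4.79 (SFT2D1, from 3339 to 129 units) and -1.62 (C19orf54), and all 8 were single spots in rows 368 to 415. Of the highest, CTTNBP2NL (2.81), DIO3 (2.57), TBK1 (1.69) and TGDS (1.51) lay in rows 366 to 376, while FRMD4B (from 70.4 to 332 units, 2.14, with 2 spots at least 8-fold higher within 3 positions) and NOC4L (from 682 to 2349 units, 1.69) lay in rows 308 and 46. Where a gene past 1.5-fold had a second probe, that probe pointed the same way for 10 of 14 genes in rows 1 to 360 (71.4%, exact 95% interval 41.9 to 91.6) and for 19 of 33 in lower rows (57.6%, 39.2 to 74.5). It passed 1.5-fold itself for 4 of the 14 and 1 of the 33.

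Of 2461 genes with at least 2 measured probes, 5 passed 1.5-fold in one direction on all of them. HSD17B7, LSS and LPIN1 have been given above, with the second probes of LSS and LPIN1 dim and in rows 390 and 479. IL1RN, the interleukin-1 receptor antagonist, rose by 0.97 (from 216 to 454 units) and 0.84, and C6orf182 fell by 0.64 and 0.63, but by 0.45 with spike-in scaling and 0.38 with normexp. In rows 1 to 360 CROT, PYCRL and SPC25 were named after their values were seen. CROT, a peroxisomal carnitine acyltransferase, read 374 and 845 units (1.08) with 3 spots at least 8-fold higher within 3 positions. PYCRL, a proline enzyme, read 1.19 on its brightest probe, with 2 such spots, and -0.22 on the other. SPC25, of the kinetochore's NDC80 complex, fell from 1819 to 1096 units (-0.83) at row 171, column 29. SPIN1, close by at row 169, column 30, read -0.92. Whether that part of the array lowered both was not tested.

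The 613 probes spotted 10 times and measured give a check of single ratios. The standard deviation of a single-spot log2 ratio had a median of 0.139 over them, 0.27 under 200 units and 0.13 from 200 units up, and 4 of the 613 passed 1.5-fold, all higher. They were MSMO1, HSD17B7, DDIT4 and ACSL1, and NPC1 (0.56) was next. The lowest was ASF1B, a histone chaperone, at -0.55, but 1 ATO spot in row 420 read 783 units against a median of 2728, and the ratio of the median spots was -0.36. APLN, apelin, at -0.41 became -0.25 in the same way, and KDELC1 at -0.39 became -0.28. KIF20A, a mitotic kinesin, read -0.43, TERT, the telomerase subunit, -0.43 with overlapping spots, and MDM1 -0.49 at under 100 units on this probe, while a second, brighter MDM1 probe read -0.04.

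**Figure D5:**
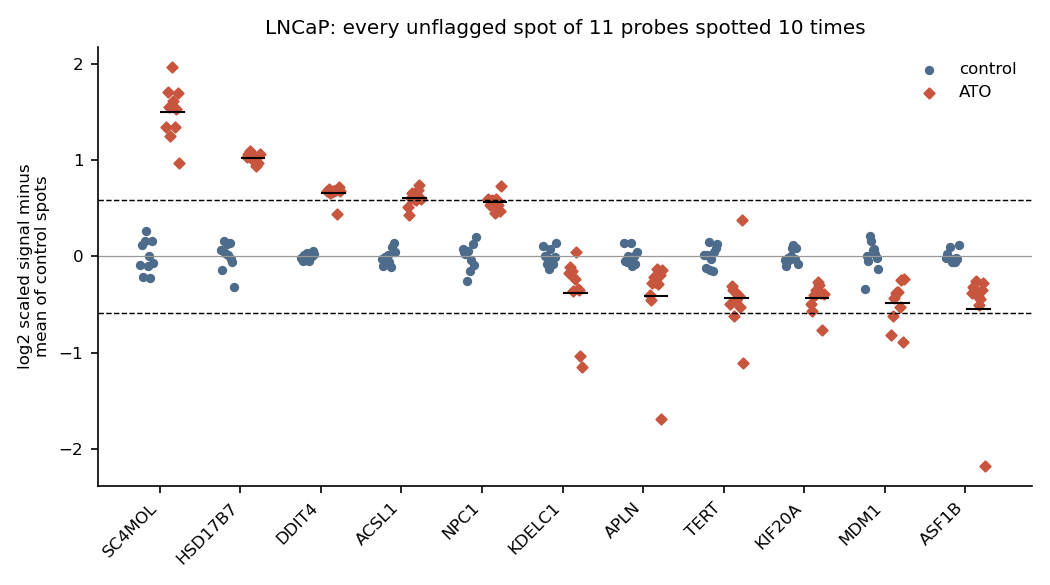
Every unflagged spot of 11 probes spotted 10 times on each array, as log2 intensity minus the mean of the control spots, with the mean of the ATO spots as a black line and 1.5-fold as dashed lines. The spots of MSMO1, HSD17B7, DDIT4 and ACSL1 do not overlap between arrays, and the low means of ASF1B, APLN and KDELC1 include stray ATO spots.

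The PC3 arrays, which have their own control, were processed in the same way and are given side by side with no test of the difference. There 1851 of 12548 measured genes (14.8%) passed 1.5-fold. For the 22 sterol synthesis genes the middle log2 ratio was 0.52 in PC3 and 0.72 in LNCaP cells, and 10 rose in PC3 against 14 in LNCaP. HMGCS1 read 0.63 in PC3 and 1.87 in LNCaP cells, DHCR7 -0.22 and 0.72, and INSIG1 1.16 and 1.38. The cell cycle genes had a median of -0.51 in PC3, where 47 of 115 fell, and -0.24 in LNCaP. KLF2 read 4.68 in PC3 and 0.22 in LNCaP cells, DDIT4 2.24 and 0.66, GDF15 1.85 and 0.94, and CDKN1A 1.32 and 0.03.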

How the data were processed

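Total RNA of each culture was hybridised to a 1-colour Agilent 4x44K array, all 4 on the same slide and scan. The authors extracted intensity values with Agilent Feature Extraction 9.5.3.1, and the processed signal, already background-corrected, was used. The deposited table holds a ratio of each processed signal to a constant of its array near the 75th percentile, floored at 0.03, and served as an alternative. Signals of gene spots were divided by the array's 75th percentile, flagged outlier spots were left out, copies of a probe were averaged on the log2 scale, and the brightest probe well above background on both arrays stood for a gene. A gene was called past 1.5-fold. For a gene measured on 1 array, the dim side was set to a floor, giving "at least". No test was run across 1 array per condition; its number limits the precision. Normexp (offset 50) used limma 3.58.1 in R 4.3.3; other steps used Python 3.11.15, numpy 2.4.6 and pandas 2.3.3, with scipy 1.17.1 for intervals and matplotlib 3.10.9. The scripts were tested on simulated data.

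The members and the 31 lists (563 genes, 559 on the array, 451 measured on both, 13 on 1 only and 95 on neither; AKR1C2, UGT2B17, UGT2B28 and CDC45 had no probe under their symbol) were chosen with earlier results of these data known. Named were all measured members of the 3 sterol lists, the 3 members of each other list farthest from 0 outside bright background, the 8 highest and 8 lowest genes there, the 6 highest and 6 lowest among probes with 10 spots, genes past 1.5-fold on all of at least 2 probes, and CDKN1A, BCL2, MAP1LC3B and PCNA. Some members that these rules take, and results that need them, are not reported here. A gene outside these rules was named for its role or after its values were seen. A transcript with no gene symbol among the highest was not described. The alternatives were other percentiles, spike-in and quantile scaling, normexp, the deposited values, other filters, rows, probes and outlier handling, and a 2-fold limit. Rows 1 to 360, and the median over a probe's copies, were added after seeing the data. Promoter sequences came from RefSeq (GRCh38.p14).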

Additional observations from a re-analysis of the deposited data

Results flagged for a closer look

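The median log2 ratio of the measured YAP and TEAD genes was 0.0225 in LNCaP cells and -0.78 in PC3 cells, opposite in sign. It was singled out for the opposite signs alone, and the difference was not tested. In LNCaP cells 5 genes were higher and 4 lower, none passed 1.5-fold, the median over all genes was 0.02, and the list median turned to -0.00185 with normexp and -0.0244 where 1 array above background was enough.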

How the results depend on the processing

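No paired analysis was possible because each condition is 1 array. Spike-in scaling raised the all-gene median by 0.19, and 598 genes then passed 1.5-fold (543 higher, 55 lower), 90.8% of them higher against 62.1% otherwise. The list medians became 0.91 for the mevalonate arm and for squalene to cholesterol, 0.26 for SREBP and LDL uptake, 0.20 for LXR, 0.49 for fatty acid synthesis, 0.17 for prenylation, 0.18 for coenzyme Q and dolichol, 0.23 for pantothenate, 0.24 for androgen and estrogen metabolism and 0.18 for androgen-responsive genes. They became -0.11 for replication, -0.0102 for nucleotide supply, 0.0767 for G1 and S phase, -0.0564 for mitosis, 0.14 for a list not reported here, 0.50 for ATF4, 0.24 for ER chaperones, 0.0639 for heat shock, 0.25 for NRF2, 0.23 for autophagy, 0.19 for the BCL2 family and 0.23 for immediate early genes. The rest became 0.38 for KLF factors, 0.22 for YAP and TEAD, 0.25 for polyamines and 0.29, 1.18, 0.0271, 0.56 and 0.24 for the luminal, PC3 and mesenchymal, basal, neuroendocrine, and fibroblast and leukocyte markers.

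Under normexp 161 genes passed (95 higher, 66 lower) and the PC3 and mesenchymal median was 0.53. Leaving out bright background gave 184 genes (107 and 77) or, with the 95th percentile limit, 173 (102 and 71), and the neuroendocrine median was 0.60 in both. The upper rows gave 81 genes (52 and 29), with medians of 0.41 for the mevalonate arm, -0.52 for LXR, 0.0195 for basal and 0.60 for neuroendocrine markers. Rows 1 to 360 gave 119 genes (84 and 35), with 0.0195 and 0.60 for those markers. Requiring 1 array above background gave 652 genes (389 and 263), at least 100 units gave 209 (117 higher), and a 2-fold limit gave 78 (55 and 23). Fewer genes are measured under the row, background and 100-unit settings. Other causes were not tested.

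Of 2378 values of 168 genes, named or past 1.5-fold in a list, under the alternatives, 2121 stayed within the technical spread and 257 moved. None that passed 1.5-fold changed sign. These counts do not measure robustness, because many were fixed by the settings. Row and background filters leave the ratio of a single-spot probe unchanged. Other percentiles shift every gene by at most 0.02, and spike-in scaling by 0.19, past the spread of 0.139. With 1 array a side, neither a culture's variation nor a change in total RNA can be measured, and genes below background have no ratio.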
